A study of Mus musculus with 12 samples.

Results

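The 10 genes described here are Serpina1a, Serpina1b, Serpina1c, Serpina1d, Serpina1e, Serpina3k, Serpina3m, Serpina3n, Serpina6 and Serpina10. They encode secreted proteins of the serpin (serine protease inhibitor) family and lie in 1 cluster on mouse chromosome 12. They were chosen by name from the 32285 genes of the count matrices, and all 10 were detected. The matrices list 24 genes whose symbol starts with Serpina and 61 whose symbol starts with Serpin, so 51 serpin genes lay outside the choice. The members were followed in hepatocyte nuclei as unique molecular identifiers (UMIs, 1 per captured RNA molecule), split by the authors' counting into spliced, unspliced and ambiguous molecules, and near-identical paralogs were also summed.

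The study profiled single nuclei from 8 male wild-type mice, labelled C57BL6J and given as C57BL/6NTac in the study's methods, aged 10 to 12 weeks and fed chow. Each mouse gave 3 samples with the same number. Liver (L) was a snap-frozen piece of the perfused median lobe, Cell Suspension (CS) was the cells after collagenase perfusion and low-speed centrifugation, and Primary Hepatocytes (PH) were cells of the same liver after 24 hours on collagen in medium with serum, dexamethasone and insulin. All 3 types had been perfused, and no untreated culture control stands beside PH, so attachment, medium, hormones and time in culture cannot be told apart. The 24 hashtagged samples were run in 6 pools of 4, and L and PH shared only 2 of the pools.

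Hepatocyte nuclei were those the study annotated as hepatocytes, tissue or isolated, plus 4 of the clusters of cultured nuclei whose summed hepatocyte markers led. They numbered 42467, with 675 to 2585 nuclei and 2065229 to 29018248 UMIs a sample. Among them were 73 PH nuclei outside the cultured clusters, and 45 CS and 2 L nuclei inside these clusters. For PH nuclei that lay with tissue or isolated hepatocytes, the study named variable dedifferentiation or demultiplexing errors as possible. Background nuclei were the nuclei annotated as endothelial plus 1 cultured cluster in which endothelial markers led at 6391 CPM (UMI counts scaled to a common library total), against 3540 CPM for hepatocyte markers. They numbered 5435, with 29 to 560 a sample, and in PH 1733 of the 1809 came from that cultured cluster. None of the 10 genes that led it by fold was on the hepatocyte, endothelial or stellate marker lists used here. Its median UMI count was 0.24 of that of its own samples. By these 2 rules it is given no cell type name here, although endothelial markers led in it. The 4 cultured clusters taken as hepatocyte nuclei had no marker of these lists among their leading 10 genes either. Their median UMI counts were 0.943 to 1.313 of those of their own samples. Their hepatocyte markers were at 3470 to 5801 CPM, the lowest being under the 3540 CPM of the background cluster, and their endothelial markers at 92.1 to 322 CPM. Hepatocyte markers also led, at 9391 CPM, in another cultured cluster, of 2321 nuclei. It was left out as low in UMIs, its median being 0.318 of that of its own samples. A cluster annotated as tissue hepatocytes, at 0.333, was kept. The study described dedifferentiated endothelial cells in its cultures by markers such as Arhgap31 and Adgrf5. It also reported high levels of Itgb3 in these cells. Itgb3 was among the genes that led the background cluster by fold. In hepatocyte nuclei the summed level of 10 hepatocyte markers ran from 14649 to 19093 CPM in L, from 18990 to 22942 CPM in CS and from 2943 to 7041 CPM in PH. Also in hepatocyte nuclei, the summed level of 10 endothelial markers ran from 37.1 to 59.6 CPM in L, 37.9 to 78.4 in CS and 114 to 179 in PH, and that of 8 stellate markers from 18.7 to 45.6 in L, 16.2 to 45.8 in CS and 75 to 647 in PH, so both were higher in every PH sample than in any L or CS sample, and their part in the results was not tested. In background nuclei the endothelial markers ran from 12269 to 15990 CPM in L, 9622 to 15454 in CS and 5348 to 9235 in PH, and the hepatocyte markers from 2316 to 4820 in L, 2198 to 8699 in CS and 1459 to 5009 in PH.

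Serpins inhibit serine proteases by a suicide mechanism: the protease cuts an exposed loop, stays covalently bound and is dragged across the refolding inhibitor. The liver secretes most of the serpins found in plasma. The Serpina1 genes encode alpha-1-antitrypsin, which restrains neutrophil elastase, and the mouse carries several copies where humans have a single gene. The Serpina3 genes are an expanded mouse family related to human alpha-1-antichymotrypsin, and Serpina3n is known as an acute-phase gene induced by inflammation and glucocorticoids. Serpina6 encodes corticosteroid-binding globulin, a hormone carrier that does not inhibit proteases. Serpina10 encodes the protein Z-dependent protease inhibitor, which inhibits activated coagulation factor X with protein Z as cofactor and activated factor XI without it.

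The 10 gene models spanned 799.5 kb at chr12:103614786-104414329 (GRCm38). Serpina10, Serpina6 and Serpina1a to Serpina1e lay on the minus strand and the Serpina3 genes on the plus strand. The model of Serpina1d (chr12:103763594-103773592) lay inside that of Serpina1b (chr12:103728156-103830373), and the model of Serpina3k (chr12:104338486-104346144) lay inside that of Serpina3m (chr12:104338486-104394257), in both pairs on the same strand. Unspliced molecules of the inner and the outer gene could therefore not be told apart. Serpina1d was assigned 0 unspliced UMIs among 15606 in hepatocyte nuclei and Serpina3k 0 among 92726, and since the outer gene may have taken them, no limit on their unspliced share is given.

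Coding sequences of Serpina1a to Serpina1e were 91.6 to 96.8% identical over the 10 pairs, those of Serpina3k, Serpina3m and Serpina3n 82.9 to 91.3% over 3 pairs, and the other pairs 53.6 to 62.7%.

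The Serpina3 genes are shown because their levels moved differently between the sample types and their spliced molecules differ in sequence. The lines give the 75 coding bases in which the 3 genes differ most, bases 1171 to 1245 close to the end of the coding sequence (GRCm38 transcripts, 5' to 3'), and capitals mark the 29 positions at which they are not all alike.
Serpina3k: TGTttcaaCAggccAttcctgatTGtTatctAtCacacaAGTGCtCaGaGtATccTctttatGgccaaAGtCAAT
Serpina3m: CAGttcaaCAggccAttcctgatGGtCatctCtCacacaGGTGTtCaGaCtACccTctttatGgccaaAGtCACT
Serpina3n: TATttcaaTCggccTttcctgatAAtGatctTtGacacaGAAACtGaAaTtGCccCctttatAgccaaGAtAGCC

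The library chemistry reads the 3' part of a transcript. Of the 31-base words in the last 500 bases of each Serpina1 transcript, 44.0% (Serpina1e) to 63.6% (Serpina1a) also occurred in another member, against 0 to 2.6% for the Serpina3 genes and 0% for Serpina6 and Serpina10. How UMIs that match several genes were assigned is not given in the sources used here, so the split between single Serpina1 paralogs is uncertain. Their sum does not depend on that split, but would miss any UMIs that were dropped for matching several genes.

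Levels between sample types are given as CPM scaled with TMM (trimmed mean of M values) factors, and tests are edgeR quasi-likelihood tests over 26521 genes with Benjamini-Hochberg adjusted p (8 samples a type). In bulk-like sums over nuclei, fewer nuclei that transcribe a gene and less RNA per nucleus cannot be told apart. Of the 10 members, 8 were lower and 1 was higher in PH hepatocyte nuclei than in L, where 26.7% of all genes tested were lower and 27.4% higher. The members' median log2 change was -1.94, against 0.04 over all genes. Against CS, 9 were lower and none was higher, with 24.0% of all genes lower and 27.6% higher, but with library totals in place of TMM 8 were lower and 1, Serpina3n, was higher, where 12% of all genes were lower and 47.4% higher. Between CS and L, 2 were higher and none was lower, with 7.69% of all genes higher and 13.8% lower. The comparisons share samples, so their counts are not independent.

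**Figure D1:**
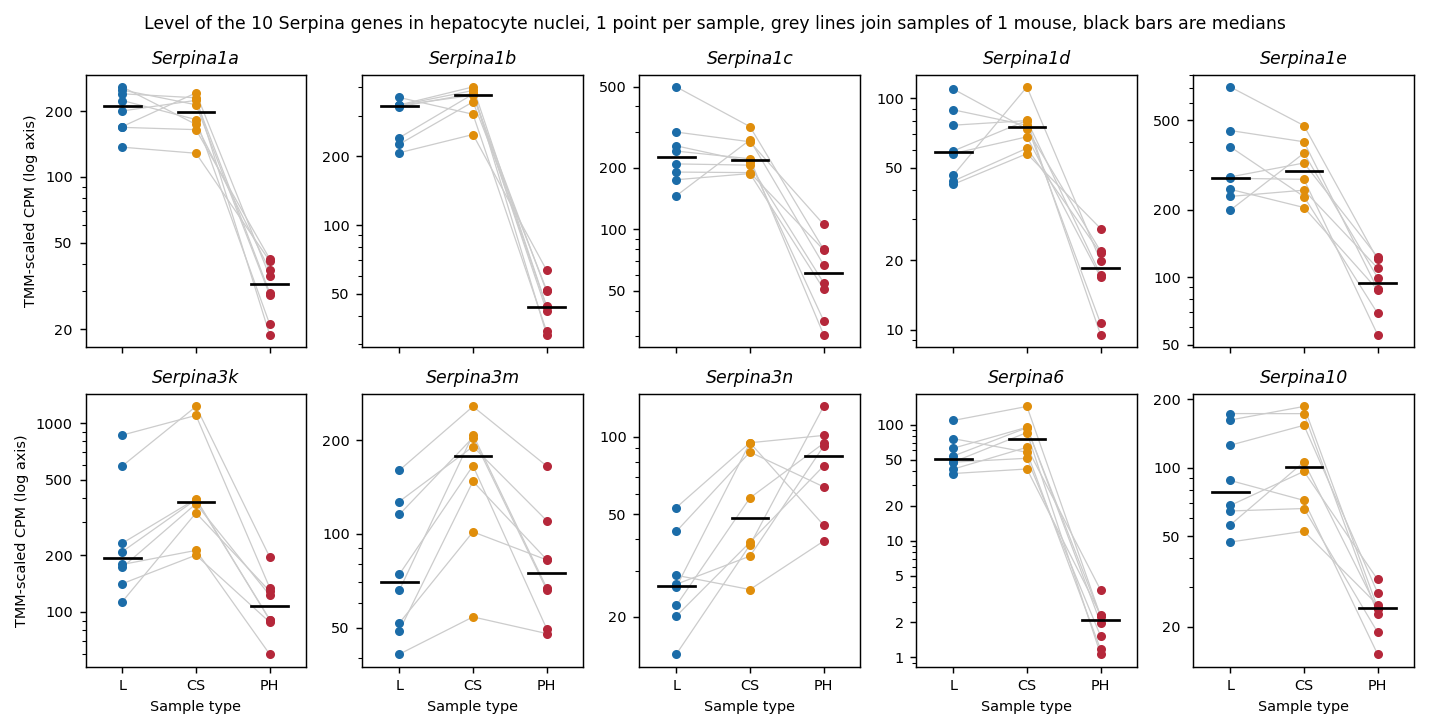
TMM-scaled CPM (log axis) of each member in hepatocyte nuclei by sample type (L, CS, PH), with 1 point per sample, grey lines joining the samples of 1 mouse and black bars at the medians. PH lies under every L and CS sample for Serpina1a to Serpina1e, Serpina6 and Serpina10, while Serpina3m and Serpina3n overlap between L and PH.

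The alpha-1-antitrypsin genes fell together in culture. Their sum ran from 803 to 1906 TMM-scaled CPM in L (median 1093), from 1005 to 1410 in CS (median 1146) and from 147 to 361 in PH (median 248). All 8 PH samples lay under all 16 samples of L and CS. The log2 change of the sum was -2.21 ± 0.18 (SE) from L to PH (edgeR, adjusted p = 8.5e-12) and -2.21 ± 0.18 from CS to PH, whereas CS and L differed by 0.01 ± 0.17 (adjusted p = 0.99).

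Among the single paralogs, Serpina1b ran from 207 to 362 TMM-scaled CPM in L (median 332) and from 33.1 to 63.4 in PH (median 44.0). Its log2 change of -2.70 ± 0.15 was close to that of Serpina1a, -2.70 ± 0.17, which went from a median of 212 to a median of 32.3. Neither gene's PH samples overlapped those of L. Serpina1c changed by -2.0 ± 0.23, Serpina1d by -1.86 ± 0.21 and Serpina1e by -1.88 ± 0.23, each without overlap (edgeR, all adjusted p at most 2.7e-08). These totals differ in kind, since Serpina1d was assigned 0 unspliced UMIs and Serpina1b, whose model holds it, 30281 of its 62845. No order of the paralogs is read from them. Between L and CS none of the 5 passed the test, with log2 changes from -0.14 (Serpina1e) to 0.25 (Serpina1b, adjusted p = 0.24).

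Unspliced molecules, which mark recent transcripts, changed far more than spliced ones. The summed unspliced level of the Serpina1 genes ran from 271 to 462 TMM-scaled CPM in L (median 344), from 221 to 345 in CS (median 306) and from 6.53 to 12.9 in PH (median 9.89). The summed spliced level ran from 474 to 1347 in L (median 673), from 622 to 1061 in CS (median 750) and from 130 to 324 in PH (median 222). Neither measure overlapped between PH and the other types, and the ratio of the L mean to the PH mean was 37.0 for unspliced and 3.29 for spliced molecules. In PH, however, no Serpina1 gene was called higher in hepatocyte than in background nuclei, as given below. Barcodes with under 100 UMIs held mostly spliced Serpina1 RNA. The part of free RNA in the spliced level of PH, and in the spliced share that follows, was not tested. In fits of unspliced UMIs alone, where 26.4% of genes were lower and 26.9% higher from L to PH, the log2 changes were -6.42 for Serpina1a, -4.46 for Serpina1b, -5.63 for Serpina1c and -6.21 for Serpina1e. In fits of spliced UMIs alone, with 28.5% of genes lower and 30.2% higher, they lay between -2.08 (Serpina1d) and -1.91 (Serpina1c).

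The spliced share, spliced UMIs as a percent of spliced plus unspliced, put this in 1 value a sample. Unspliced UMIs of Serpina1b can include Serpina1d introns, and those of Serpina3m can include Serpina3k introns. The shares of Serpina1b and Serpina3m may therefore not be those of a single gene. For Serpina1a the share was 51.9% ± 7.0 (SD, n = 8) in L, 62.2% ± 7.6 in CS and 96.3% ± 2.0 in PH. For Serpina1b it was 40.9% ± 6.5, 48.5% ± 5.4 and 83.2% ± 3.6, for Serpina1c 77.1% ± 6.4, 85.3% ± 6.3 and 98.1% ± 0.86, and for Serpina1e 86.6% ± 8.0, 92.4% ± 5.0 and 99.3% ± 0.43. All 4 were higher in PH than in L (exact permutation test, 8 against 8 samples, p = 0.000155 for each, the smallest such a test can give, adjusted over 10399 genes to 0.00054). A higher share in PH than in L was common, since 62.8% of all genes tested showed it, but the median rise was 4.67 percentage points over all genes and 21.05 over the 7 members tested. From CS to PH, where 14.5% of genes rose, all 7 members tested rose, Serpina1b by 34.7 percentage points and Serpina1e by 6.91, and 6 of the 7, all but Serpina10, were called with the samples paired by mouse, against 9.72% of genes. From L to CS, where 67.5% of genes rose, Serpina1a, Serpina1b, Serpina1c and Serpina6 were called among the 8 members tested, and Serpina1a rose by 10.3 percentage points (exact permutation test, adjusted p = 0.023). These tests did not pair the samples. In an exact sign-flip test over the 8 mice, which cannot give a p under 0.0078, the 4 calls between L and CS held and Serpina1e was called as well (5.73 percentage points, adjusted p = 0.016), against 65.3% of genes called higher.

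**Figure D2:**
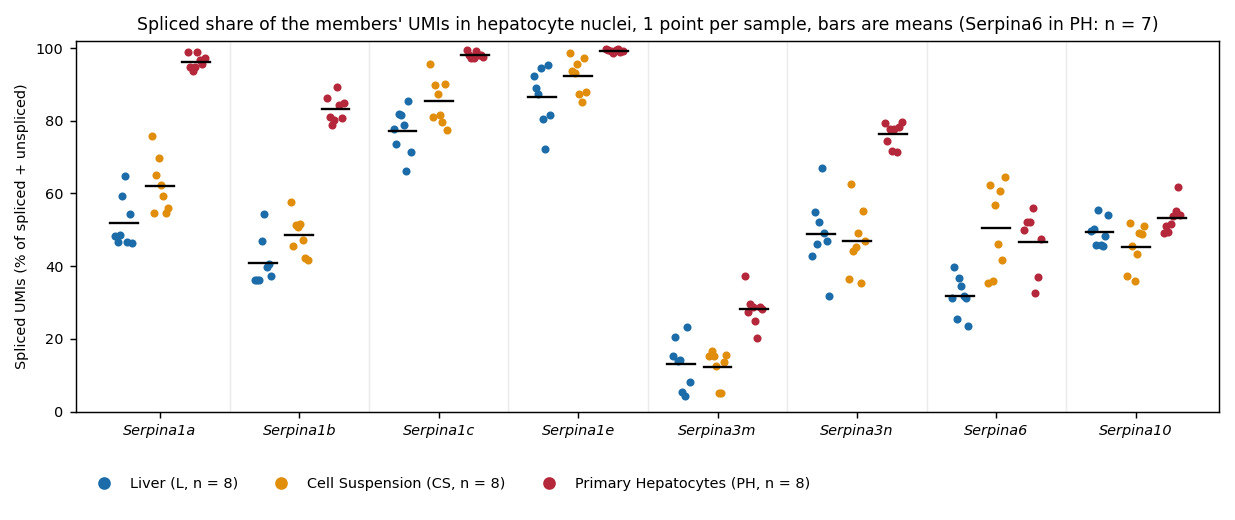
Spliced UMIs as a percent of spliced plus unspliced UMIs in hepatocyte nuclei for the 8 members with unspliced UMIs, with 1 point per sample (L, CS and PH, n = 8, except 7 PH samples for Serpina6) and bars at the means. The share of Serpina1a rises from a mean of 51.9% in L to 96.3% in PH, while Serpina10 has means of 49.3% in L, 45.4% in CS and 53.2% in PH. Unspliced UMIs of Serpina1b and Serpina3m can include introns of Serpina1d and Serpina3k.

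In total UMIs the Serpina3 family split into 3 patterns. The totals are unlike in kind, since Serpina3k was assigned 0 unspliced UMIs and Serpina3m 27816 of its 33561, which can include Serpina3k introns. In spliced UMIs the PH mean was 2.55 times the L mean for Serpina3m, 4.43 times for Serpina3n and 0.363 times for Serpina3k. The CS mean was 2.15, 1.93 and 1.69 times the L mean in the same order. Serpina3k ran from 113 to 864 TMM-scaled CPM in L (median 193), from 200 to 1224 in CS (median 384) and from 59.8 to 196 in PH (median 107). It was lower in PH than in L in 7 of 8 mice, although the 2 types overlapped, with a log2 change of -1.46 ± 0.40 (edgeR, adjusted p = 0.0026), and it was lower in PH than in CS without overlap, by -2.22 ± 0.41. In CS it was higher than in L in all 8 mice, by 0.76 ± 0.39, which did not pass the test (adjusted p = 0.19) but did with the mouse as a block (0.78, adjusted p = 0.0034).

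The total level of Serpina3m, most of it unspliced, was highest in CS. It ran from 41.1 to 160 TMM-scaled CPM in L (median 70.0), from 54.1 to 257 in CS (median 178) and from 47.8 to 165 in PH (median 74.8). It was higher in CS than in L in all 8 mice (log2 change 0.96 ± 0.29, edgeR, adjusted p = 0.016) and lower in PH than in CS in all 8 (-0.99 ± 0.29, adjusted p = 0.0049), so that PH and L differed by -0.03 ± 0.29 (adjusted p = 0.95). The difference between PH and L depended on the kind of molecule. Spliced Serpina3m ran from 6.96 to 10.5 TMM-scaled CPM in L and from 13.7 to 33.3 in PH without overlap (log2 change 1.10, edgeR, adjusted p = 5.9e-05), whereas unspliced Serpina3m, which can include Serpina3k introns, ran from 31.3 to 153 in L and from 33.9 to 131 in PH (-0.23, adjusted p = 0.60). The fall from CS to PH was likewise found in unspliced molecules (-1.32, edgeR, adjusted p = 0.0011) but not in spliced ones, which ran from 7.28 to 31.6 TMM-scaled CPM in CS (0.36, adjusted p = 0.16).

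In total UMIs Serpina3n was the 1 member called higher in PH than in L. It ran from 14.3 to 53.1 TMM-scaled CPM in L (median 26.4), from 25.5 to 94.8 in CS (median 48.4) and from 39.3 to 131 in PH (median 84.4). The types overlapped at their ends, and 7 of 8 mice had more in PH than in L. The PH sample of mouse 6 had the most Serpina3n and Serpina3m of the 8 (131 and 165) and also the highest Serpina1 sum (361). It had the highest stellate (647 CPM), endothelial (179) and hepatocyte (7041) marker sums in hepatocyte nuclei of PH, and their part in these levels was not tested. The log2 change was 1.46 ± 0.28 from L to PH (edgeR, adjusted p = 4.9e-05) and 1.02 ± 0.28 from L to CS (adjusted p = 0.0080), while CS and PH differed by 0.44 ± 0.28 (adjusted p = 0.20), a difference that was called with library totals (1.15, adjusted p = 0.00057) and in spliced UMIs alone (1.32, adjusted p = 5.8e-05). The rise from L to PH lay in spliced molecules (log2 change 1.87) and not detectably in unspliced ones (0.45, adjusted p = 0.27), and its spliced share was 48.8% ± 10.1 in L, 46.9% ± 9.0 in CS and 76.3% ± 3.4 in PH.

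As a sum, Serpina3k, Serpina3m and Serpina3n changed by -0.62 ± 0.34 from L to PH (edgeR, adjusted p = 0.13) and by 0.82 ± 0.34 from L to CS (adjusted p = 0.087). With the mouse as a block both passed, at -0.44 (adjusted p = 0.038) and 0.84 (adjusted p = 0.00084). From CS to PH the log2 change of the sum was -1.44 ± 0.34 (adjusted p = 0.00068). The calls for Serpina3m and Serpina3n between L and CS were lost when the pool was a covariate, at 0.80 (adjusted p = 0.11) and 0.85 (adjusted p = 0.084), and Serpina3m lost its call without mouse 4 (0.88, adjusted p = 0.064).

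In total UMIs Serpina6, the corticosteroid carrier, had the largest fall of the 10 from L to PH, while in unspliced UMIs alone Serpina1a, Serpina1c and Serpina1e had larger ones. Its level ran from 37.9 to 108 TMM-scaled CPM in L (median 50.6), from 41.5 to 143 in CS (median 74.6) and from 1.06 to 3.78 in PH (median 2.11). The PH samples held 20 to 64 UMIs of Serpina6 each, 290 in all, against 7588 in L. The log2 change was -4.87 ± 0.29 from L to PH (edgeR, adjusted p = 3.7e-15) and -5.29 ± 0.29 from CS to PH, and the mean was 29.1-fold lower in PH than in L. The log2 change was -4.64 for spliced and -5.10 for unspliced molecules alone. Between L and CS the total did not pass the test (0.42 ± 0.23, adjusted p = 0.23), but spliced Serpina6 was higher in CS in all 8 mice (0.65, edgeR, adjusted p = 0.028) and its spliced share went from 31.8% ± 5.4 in L to 50.4% ± 12 in CS (exact permutation test, adjusted p = 0.0030). In PH the share was 46.7% ± 8.6 over 7 samples, above L by 14.9 percentage points (exact permutation p = 0.0026, not adjusted, since too few UMIs in 1 sample kept the gene out of the test across genes).

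Serpina10 ran from 47.1 to 173 TMM-scaled CPM in L (median 78.0), from 52.5 to 186 in CS (median 101) and from 15.1 to 32.2 in PH (median 24.1). Every PH sample lay under every L and CS sample, and the log2 change was -2.05 ± 0.27 from L and -2.25 ± 0.27 from CS (edgeR, adjusted p = 1.3e-07 and 3.0e-08). Its log2 change was -2.18 in spliced and -2.09 in unspliced molecules alone, and its spliced share differed between PH and L by 3.90 percentage points (exact permutation test, adjusted p = 0.089). From CS to PH the share rose from 45.4% ± 6.1 to 53.2% ± 4.1 (adjusted p = 0.021), a call that was lost with the samples paired by mouse (exact sign-flip test, adjusted p = 0.063).

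The scaling moved the sizes, and for Serpina3m and Serpina3n from CS to PH also the calls. TMM factors were 1.24 to 1.49 in PH, 0.812 to 1.01 in L and 0.742 to 0.931 in CS. With library totals alone the median of all genes moved to 0.57 from L to PH and 0.69 from CS to PH, and the log2 change from L to PH was -2.17 for Serpina1a, -0.89 for Serpina3k (edgeR, adjusted p = 0.047), 2.01 for Serpina3n and -4.34 for Serpina6, while Serpina3m was at 0.51 (adjusted p = 0.11), again with 8 members lower and 1 higher, where 16% of all genes were lower and 45.9% higher. Serpina3m was no longer called from CS to PH (-0.31, edgeR, adjusted p = 0.36). Within the 2 pools that held both types (1 L sample in each, with 1 PH sample in pool 2 and 2 in pool 5) the sum of the Serpina1 genes differed by -2.94 and -2.83 on the log2 scale, Serpina6 by -5.59 and -4.65, Serpina10 by -1.23 and -3.00, and Serpina3n by 2.09 and 1.44.

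Because droplets also catch free RNA, each level was set against background nuclei of the same sample, in CPM without TMM scaling. In L the Serpina1 sum was 774 to 1548 CPM in hepatocyte nuclei (median 1044) and 286 to 642 CPM in background nuclei (median 394). In PH it was 198 to 460 CPM in hepatocyte nuclei (median 331) and 105 to 760 CPM in background nuclei (median 462). Hepatocyte nuclei thus stood above the background in L, and in PH the 2 ranges lay over each other. In L all 10 members were higher in hepatocyte nuclei (exact sign-flip test over 8 samples adjusted over 7791 genes, adjusted p = 0.012 for 9 members and 0.021 for Serpina3k), where 35.8% of all genes were higher. The log2 ratios ran from 0.73 (Serpina1d) over 1.61 (Serpina1a and Serpina1b) to 2.68 (Serpina10) and 2.77 (Serpina6). Serpina1d and Serpina3k, assigned 0 unspliced UMIs, entered with spliced and ambiguous molecules only. The ratios thus differ in kind, and no order of the members is read from them. In CS all 10 were higher as well, against 29.4% of genes.

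In PH only Serpina3m (log2 ratio 1.19), Serpina3n (0.99) and Serpina10 (1.24) were called higher in hepatocyte nuclei than in background nuclei, against 34.2% of all genes, and Serpina1d was called lower (-0.71), against 20% (exact sign-flip test, adjusted p from 0.019 to 0.031). The other Serpina1 genes lay between -0.37 and -0.13, Serpina3k at -0.18 and Serpina6 at -0.16, with no call. What remained of the UMIs assigned to these genes in PH hepatocyte nuclei could therefore not be told from the level found in other nuclei of the same samples. Serpina1d and Serpina3k were compared in spliced and ambiguous molecules only, having 0 unspliced UMIs assigned. Serpina3k introns can be counted in Serpina3m, which was called higher. The background nuclei of PH were not free of hepatocyte RNA. Their summed hepatocyte markers were at 5009 CPM against 3687 CPM in hepatocyte nuclei in the PH sample of mouse 3, at 4201 against 4185 in that of mouse 8 and at 4287 against 4509 in that of mouse 4. In the other 5 PH samples they were lower than in hepatocyte nuclei, at 1459 to 3217 against 2943 to 7041 CPM. Their part in the ratios was not tested. The change of the ratio itself from L to PH was called lower for 8 members, all but Serpina3m and Serpina3n, against 19.4% of genes (exact permutation test, 8 against 8 samples), from -1.01 for Serpina3k to -2.93 for Serpina6. From CS to PH it was called lower for 8, all but Serpina1e and Serpina3n, against 14.4% of genes. Between L and CS it was called for none, against 3.48% of genes in either direction, where the smallest p was 0.053 for Serpina10, so no member had an unadjusted p under 0.05 either. With the samples paired by mouse (exact sign-flip test), from L to PH Serpina3k (adjusted p = 0.054) and Serpina1e (0.075) lost their call and Serpina3m was called lower (-0.87, adjusted p = 0.043), against 16.4% of genes. The 8 members called from CS to PH held, against 11.8%. Between L and CS the paired test called 0 of the 7791 genes, so the lack of a call there is no result about the members. Their smallest unadjusted p in it was 0.070.

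**Figure D3:**
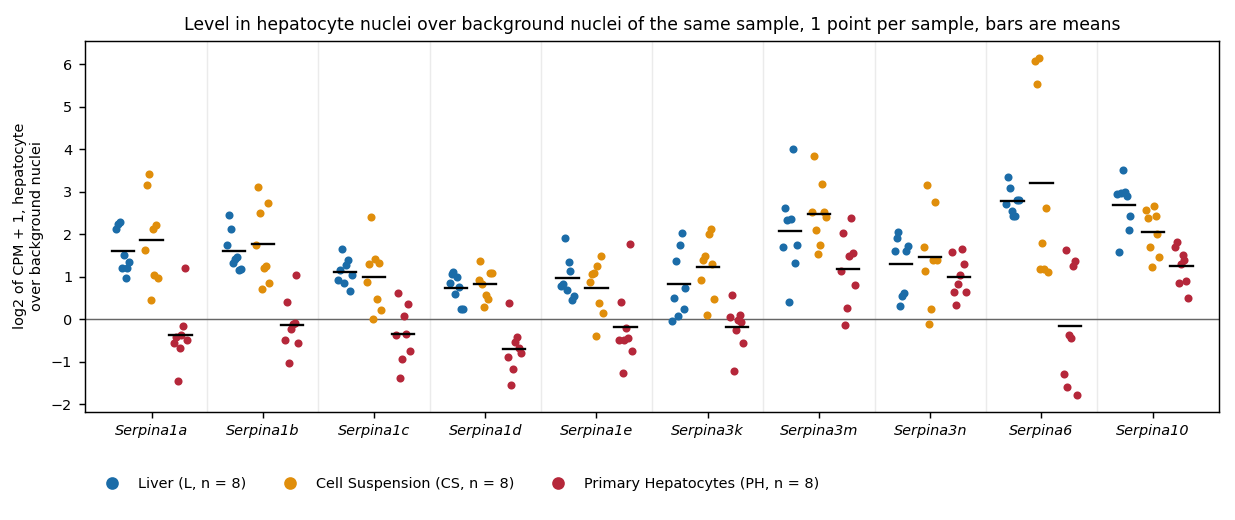
Log2 ratio of CPM + 1 in hepatocyte over background nuclei of the same sample for the 10 members, with 1 point per sample (L, CS and PH, n = 8 each), bars at the means and a line at 0. L samples sit above 0 for all members except 1 sample of Serpina3k, while PH samples lie above 0 throughout only for Serpina3n and Serpina10, with means of 0.99 and 1.24.

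The members' own change in total UMIs of background nuclei was mostly not detectable. From L to PH, Serpina3n rose by 2.24 ± 0.26 and Serpina3m by 1.33 ± 0.30 on the log2 scale (edgeR over 18279 genes, adjusted p = 2.0e-09 and 0.00042), with 15.4% of genes higher and 18.3% lower, and none of the 10 fell in total UMIs. In unspliced UMIs alone Serpina1a (-2.01), Serpina1b (-1.05) and Serpina1c (-2.24) fell from L to PH (edgeR, adjusted p from 0.0076 to 0.016), where 16.7% of genes were lower and 14.2% higher, and the same 3 fell from CS to PH, where 9.17% were lower and 8.31% higher. In total UMIs only Serpina3n rose from CS to PH (1.25 ± 0.29, adjusted p = 0.0011), with 9.37% of genes higher and 10.6% lower. Between L and CS no member was called, with 2.03% of genes higher and 1.88% lower, although Serpina3n had an unadjusted p of 0.0035 (0.99 ± 0.32, adjusted p = 0.072). In total UMIs the Serpina1 genes lay between -0.33 and 0.18 from L to PH. Unscaled levels of Serpina3n in background nuclei were 6.40 to 16.8 CPM in L and 21.0 to 81.8 CPM in PH, without overlap.

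Serpina1 RNA was also found in barcodes with under 100 UMIs, which are far below the depth of nuclei. There the spliced Serpina1 sum was 899 to 1976 CPM over the 6 pools and the unspliced sum 85.8 to 386 CPM. The pools without L had the lowest 2 unspliced values. The part of free RNA in the levels of hepatocyte nuclei was not tested.

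At a common depth of 1000 UMIs a nucleus, the share of hepatocyte nuclei with at least 1 Serpina1 UMI had a median over samples of 63.6% in L and 30.5% in PH, and the share of background nuclei 29.7% in L and 37.5% in PH. Without thinning the medians were 93.7% and 80.9% in hepatocyte nuclei and 59.6% and 54.2% in background nuclei, at median depths of 6970, 6178, 2862 and 1499 UMIs. Thinning left out 508 and 83 hepatocyte nuclei and 162 and 481 background nuclei. In PH the thinned shares overlapped between samples, at 17.5 to 36.4% in hepatocyte and 10.3 to 47.1% in background nuclei, so no order is read from them.

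Other cell types of the Liver samples held Serpina1 RNA too. The Serpina1 sum had a median over 8 samples of 1043 CPM in hepatocytes, 572 in leukocytes, 534 in Kupffer cells, 436 in biliary epithelial cells, 406 in stellate cells and 394 in endothelial cells. The mean unspliced sum was 324 CPM ± 41.6 (SD) in hepatocytes and between 18.0 (biliary) and 109 (leukocytes) in the others. Serpina3n had a median of 25.7 CPM in hepatocytes, was at 0 in biliary cells and lay between 6.12 and 9.30 in the other types. The types other than hepatocytes were not tested against each other, and their ranges overlapped.

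Zonation is the division of work along the liver lobule from the portal vein to the central vein. Hepatocyte nuclei of L and CS were thinned to 1000 UMIs and ranked in each sample by the ratio of pericentral to periportal list genes, none of which is a member, and the highest and lowest of 3 equal parts were compared (edgeR over 17593 genes, paired by sample). In L, Serpina6 was higher in the pericentral part, by 1.36 ± 0.16 on the log2 scale (adjusted p = 2.0e-16), at 69.2 CPM ± 29.1 (SD, n = 8) against 27.6 ± 20.5, and in 8 of 8 samples. In the same samples Serpina1b (-0.42), Serpina1c (-0.32), Serpina1e (-0.66) and Serpina3k (-0.37) were lower in the pericentral part. Of all genes tested, 5.13% were higher and 4.59% lower in L.

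In CS, Serpina6 was again higher in the pericentral part (1.91 ± 0.15, 8 of 8 samples), as were Serpina3m (0.68 ± 0.11) and Serpina3n (0.48 ± 0.16), and Serpina1e was lower (-0.32 ± 0.10), with 6.23% of genes higher and 5.7% lower. By sample, Serpina3m was higher in 8 of 8 and Serpina1e lower in 7 of 8. Serpina3n was higher in only 6 of 8, at a mean of 0.32 ± 0.55 (SD, exact sign-flip test, unadjusted p = 0.16). The SE of these fits, in L and CS, rests on a spread shared over genes and is not each gene's spread over mice. The difference between CS and L was called higher for Serpina3k (0.49 ± 0.13, edgeR, adjusted p = 0.023) and Serpina3m (0.75 ± 0.17, adjusted p = 0.0030), against 0.523% of genes. With the nuclei cut in 2 parts instead of 3 (edgeR), the calls of both types held and Serpina1a joined those lower in L (-0.24, adjusted p = 0.019), but of the differences between CS and L only that of Serpina3m held (0.58, adjusted p = 0.0080), with Serpina3k at 0.37 (adjusted p = 0.060). In that fit 4.3% of genes were higher and 4.17% lower in L, 5.4% and 5.05% in CS, and 0.395% and 0.104% for the difference. The pericentral list held a median of 1 UMI a nucleus in L and CS and the periportal list 5 (L) and 9 (CS), and 10.1% (L) and 12.4% (CS) of nuclei lay within 0.1 of a border in score, so the split is coarse. An exact sign-flip test over samples could give no adjusted p under 0.05 across genes, its smallest being 0.050 in L and 0.058 in CS, and for the difference between CS and L it gave Serpina3k an adjusted p of 0.30 and Serpina3m one of 0.27 (unadjusted 0.023 and 0.016).

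**Figure D4:**
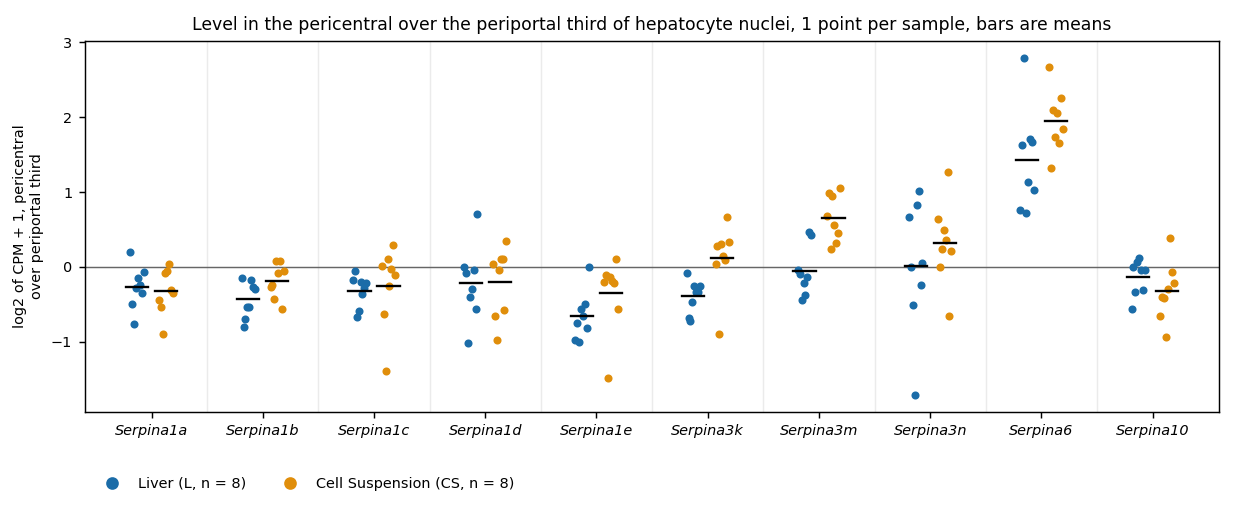
Log2 ratio of CPM + 1 in the pericentral over the periportal part of hepatocyte nuclei for the 10 members, with 1 point per sample (L and CS, n = 8 each), bars at the means and a line at 0. Serpina6 lies above 0 in every L and CS sample, and Serpina3m lies above 0 in all 8 CS samples and in 2 of 8 L samples.

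Mice 5 and 6 held the highest 2 values of Serpina3k in all 3 sample types. For Serpina3k, Dixon's test flagged neither mouse, but it takes only the most extreme value and its gap to the next. It therefore cannot tell whether 2 high mice together stood apart from the others. In L, mouse 5 had 864 and mouse 6 had 593 TMM-scaled CPM of Serpina3k, and the other 6 mice had 113 to 231. In CS the same mice had 1098 and 1224, and the others 200 to 396. In PH they had 134 and 196 and the other 6 lay between 59.8 and 129, so that mouse 5 was close to the next. Onecut1, which encodes the liver transcription factor HNF6, showed the same mice at 1978 and 1701 TMM-scaled CPM in L and 1890 and 1806 in CS, with the others at 36.2 to 342, but in PH they were among the lowest, at 10.8 and 11.3 within a range of 10.8 to 33.8. Onecut1 was singled out after its values were seen. Mouse and condition are not confounded, since each mouse gave all 3 types.

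**Figure D5:**
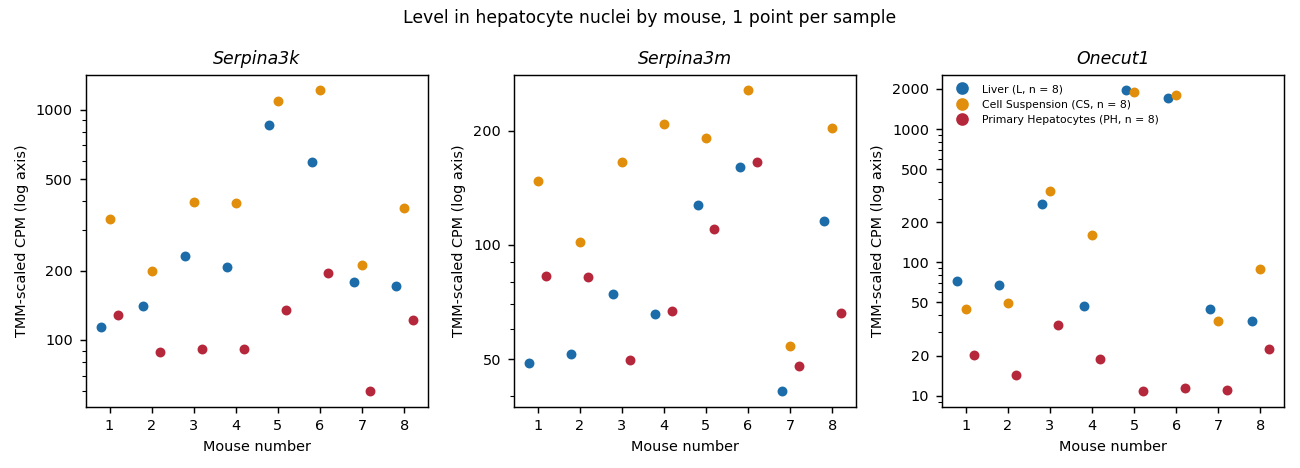
TMM-scaled CPM (log axis) of Serpina3k, Serpina3m and Onecut1 in hepatocyte nuclei by mouse number, with 1 point per sample for L, CS and PH. Mice 5 and 6 hold the highest Serpina3k in every sample type, at 864 and 593 in L, and the highest Onecut1 in L and CS but not in PH.

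The genes most like each member over the 24 hepatocyte samples were sought by Pearson correlation of log2(CPM + 1) among 6454 genes whose mean was 20 CPM or more, as a description. For the Serpina1 sum they were Apoc1 (r = 0.979), Vtn (0.977) and Gprin3 (0.977), with Apoc1 at mean levels of 412, 365 and 90.1 TMM-scaled CPM in L, CS and PH. For Serpina6 they were Cyp2j9 (0.988), Gckr (0.986) and Cyp2c23 (0.985), and for Serpina10 Ppp4r3a (0.977) and Zfp1 (0.960) were among the 3. For Serpina3k they were Larp4 (0.944), Wdr45b (0.927) and Tmem30a (0.904), and for Serpina3n Lrrc8a (0.831), Hmox1 (0.817) and Cep85l (0.809). The points share the 3 sample types, the pools and depth.

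Among the 51 serpin genes outside the cluster members, 49 could be tested, and from L to PH 15 were higher and 9 lower, where 27.4% of all genes were higher and 26.7% lower, with a median log2 change of 0.37 against 0.04 over all genes. Most of the 15 higher genes had mean levels in PH from 0.147 (Serpina3b) to 6.96 (Serpina7) TMM-scaled CPM, so the count and the median are set mostly by genes near the floor. Of the tested serpin genes above 20 CPM, 5 fell (edgeR, all adjusted p at most 6.3e-06). Serpinc1, antithrombin, went from 728 ± 111 (SD) to 42.4 ± 4.29 TMM-scaled CPM, and Serpinf2, alpha-2-antiplasmin, from 114 ± 41.3 to 22.3 ± 3.33. The log2 changes of the other 3 were -2.80 ± 0.18 for Serpinf1, -1.28 ± 0.16 for Serping1, the C1 inhibitor, and -2.75 ± 0.46 for Serpina11. From L to CS, where 7.69% of all genes were higher and 13.8% lower, 1 of the 49 was higher and 2 were lower, Serpinc1 (-0.48) and Serpinb6a (-0.65), the latter named after its values were seen.

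Of 13 liver transcription and signalling genes listed as possible regulators, 8 were lower and 1 was higher in PH than in L, beside the same 26.7% and 27.4% of all genes. Hnf4a (-1.63 ± 0.15), Foxa1 (-1.50 ± 0.21), Foxa2 (-0.91 ± 0.29) and Cebpa (-2.17 ± 0.17), which encode liver transcription factors, were lower, as were Onecut1 (-4.89 ± 0.98), the interleukin-6 receptor gene Il6ra (-0.62 ± 0.26, edgeR, adjusted p = 0.046) and the glucocorticoid receptor gene Nr3c1 (-0.61 ± 0.13). The value of Onecut1 rested on mice 5 and 6, being -4.09 without mouse 5, -4.27 without mouse 6 and -2.17 ± 0.51 without both (edgeR, adjusted p = 0.00085). Foxa2 lost its call without mouse 5 (-0.57, adjusted p = 0.062), and Il6ra lost its call without mouse 2, 3, 4, 7 or 8 (-0.43 to -0.61, adjusted p from 0.075 to 0.19). Cebpd, named after its values were seen, was the 1 higher, by 3.11 on the log2 scale. From L to CS, where 7.69% of all genes were higher and 13.8% lower, 4 of the 13 were higher and 1 was lower. The 4 were Socs3 at 4.40, Cebpd at 2.97, Cebpb at 2.43 and Cebpa at 0.90 (edgeR, all adjusted p at most 0.00013).

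Of the 7 target proteases and cofactors, 6 could be tested and 4 were lower in PH than in L, beside the same 26.7% of all genes. Proz, the cofactor of the Serpina10 product, changed by -4.12 ± 0.15 on the log2 scale, from 213 ± 38.6 (SD) to 12.3 ± 1.14 TMM-scaled CPM, and the Serpina10 target genes F10 and F11 by -1.63 ± 0.18 and -2.01 ± 0.27 (edgeR, all adjusted p at most 1.5e-07). Klkb1, plasma kallikrein, changed by -3.86 ± 0.24. Prtn3, proteinase 3, was called higher (1.12, adjusted p = 0.019) at mean levels of 0.347 and 0.829 TMM-scaled CPM, and was named after its values were seen.

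Promoters of 6 members were at hand from RefSeq (GRCm38.p6, 250 bases before to 50 after the start), those of Serpina1a to Serpina1e and Serpina3n. They are shown because the Serpina1 genes fell together and Serpina3n rose, and the 150 bases before the start are given 5' to 3' on the gene's strand, with matches to the searched motifs in capitals. Searched on both strands were the motif GTTAAT, the C/EBP motif TTNNGNAA, the STAT motif TTCNNNGAA and the HNF4 motif CAAAGTCCA. The lines give Serpina1a at chr12:103863620-103863769 (minus strand), Serpina1e at chr12:103956898-103957047 (minus strand) and Serpina3n at chr12:104406558-104406707 (plus strand).
Serpina1a: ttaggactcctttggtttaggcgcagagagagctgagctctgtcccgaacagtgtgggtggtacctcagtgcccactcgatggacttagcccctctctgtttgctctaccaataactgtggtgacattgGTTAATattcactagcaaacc
Serpina1e: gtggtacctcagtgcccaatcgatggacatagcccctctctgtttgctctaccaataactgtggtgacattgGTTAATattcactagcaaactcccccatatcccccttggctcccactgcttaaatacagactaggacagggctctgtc
Serpina3n: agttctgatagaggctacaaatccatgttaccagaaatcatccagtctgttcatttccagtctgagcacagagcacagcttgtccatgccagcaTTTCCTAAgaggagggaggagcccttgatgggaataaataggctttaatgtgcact

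All 5 Serpina1 promoters held GTTAAT, which 7.1% of the 32851 promoters in the table held, and Serpina3n did not. The C/EBP motif was in Serpina1a, Serpina1b, Serpina1d, Serpina1e and Serpina3n, and in 40.7% of all promoters. No member's window held the STAT motif (8.3% of promoters) or the HNF4 motif (0.475%). The C/EBP matches of Serpina1a and Serpina1e lay outside the 150 bases shown. In Serpina1a the GTTAAT match lay 21 to 16 bases before the listed start, and in Serpina1e 78 to 73 bases before it. These are matches of letters only. The 5 promoters share their letters, so that they are not 5 independent matches. Pairs with Serpina1e were 64.2 to 69.6% identical and the other pairs 85.2 to 91.4%. The windows were aligned whole from the listed starts, which lie farther from the GTTAAT match in Serpina1e. The lower values are therefore not read as a difference in sequence.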

How the data were processed

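Per the labels and the study's methods, nuclei of 24 hashtagged samples were run as 10x 3' libraries in 6 pools. The authors counted reads against spliced and unspliced GRCm38 transcripts with Salmon Alevin, and deposited counts (UMIs) of 32285 genes as spliced, unspliced and ambiguous, with a table of 53467 nuclei after hashtag assignment and doublet removal. bcl2fastq was version 2.19.0. Multi-gene UMIs: handling not given in the sources used here. Of the barcode sequences, 337 occur in over 1 pool.

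UMIs of all 3 states were summed per sample over hepatocyte nuclei, and over background nuclei (at least 10 a sample). Genes with under 10 counts in all were dropped. edgeR 4.0.16 (R 4.3.3) quasi-likelihood tests used TMM and all 24 samples, without covariates, as the study did with DESeq2. The threshold was an adjusted p of 0.05. Samples of a type are separate mice, and the same number is the same mouse. Deviations from the type means of same-mouse samples correlated at 0.390 to 0.877 between CS and L, at -0.068 to 0.137 between PH and L and at -0.145 to 0.115 between PH and CS (6464 genes), so the mouse block was an alternative. A sample's spliced share needed at least 20 UMIs, and ratios used a pseudocount of 1 CPM. Shares and ratios had exact tests (scipy 1.17.1), adjusted over all genes rather than over the members as first planned. Zonation calls came from an edgeR fit added after the data were seen. A low-UMI cultured cluster of 2321 nuclei was left out, although hepatocyte markers led in it, and a fit with it was an alternative.

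The members and lists were chosen with earlier results of these data known. Named were the members, the other serpin, regulator and partner genes called between L and PH with a mean of at least 20 CPM in either, and the 3 genes most like each member. Alternatives were other scalings, filters, molecule states, DESeq2 1.42.0, pool, mouse, left-out mice and fits without the nuclei whose annotation did not match their sample type. The edgeR and permutation steps were tested on simulated data. Some genes and sequences that these rules would name are not reported here.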

Additional observations from a re-analysis of the deposited data

Results flagged for a closer look

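In groups of 8 samples, 1 sample stood far from the rest (Dixon's test, which chance alone trips in about 1 of 20 groups) for 6 values, from 72 groups tested. In hepatocyte nuclei these were 498 TMM-scaled CPM of Serpina1c and 1906 of the Serpina1 sum in the Liver sample of mouse 5, 112 of Serpina1d in the Cell Suspension sample of mouse 1, and 3.78 of Serpina6 in the Primary Hepatocytes sample of mouse 6. In background nuclei of the Liver sample of mouse 4, Serpina3n and Serpina6 were both at 16.8 CPM.

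The change in level differed between hepatocyte and background nuclei, by an exact permutation test over samples of the log2 ratio of CPM + 1 with p adjusted over all genes. From L to PH the change of the ratio was -1.98 for Serpina1a, -1.74 for Serpina1b, -1.46 for Serpina1c, -1.44 for Serpina1d, -1.14 for Serpina1e, -1.01 for Serpina3k, -2.93 for Serpina6 and -1.44 for Serpina10, of which Serpina1e and Serpina3k lost their call with the samples paired by mouse (exact sign-flip test, adjusted p = 0.075 and 0.054). From CS to PH it was -2.24 for Serpina1a, -1.89 for Serpina1b, -1.34 for Serpina1c, -1.54 for Serpina1d, -1.40 for Serpina3k, -1.29 for Serpina3m, -3.36 for Serpina6 and -0.81 for Serpina10.

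The difference between pericentral and periportal nuclei itself differed between CS and L for Serpina3k (CS minus L 0.49 on the log2 scale) and Serpina3m (0.75), by an edgeR fit over all genes. With the nuclei cut in 2 parts the call of Serpina3k was lost. An exact sign-flip test adjusted over all genes gave adjusted p = 0.30 and 0.27, but it called 0 of the 6015 genes tested, so it cannot decide.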

How the results depend on the processing

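Of 1258 recomputed values, 1006 for single genes kept their call and direction, taking as kept a sign that differed where neither fit made a call. Of the counts of members called and the paralog sums, 200 were taken as kept. A sum was judged like a single gene, but a count was taken as kept when it was close to the main count, whichever members it held. From CS to PH in hepatocyte nuclei, for instance, 10 members called in place of 9 counted as kept. In hepatocyte nuclei, Serpina3m turned to 1.10 (spliced UMIs) and 1.20 (spliced plus ambiguous) from L to PH and to 0.36 and 0.31 from CS to PH. In background nuclei, unspliced UMIs alone turned Serpina1c to -2.24 from L to PH and to -2.38 from CS to PH, and Serpina1a to -2.01 from CS to PH, and called 5 members from L to PH (3 lower, 2 higher, with 16.7% of genes lower and 14.2% higher) and 3 from CS to PH (all lower, with 9.17% of genes lower). The count called there from CS to PH was 2 with library totals and 2 with the mouse block, and the count from L to CS was 1 with RLE scaling. With pool as a covariate, 0 members were called from L to CS in hepatocyte nuclei. The Serpina3 sum passed from L to PH at -0.44 with the block and -0.88 with spliced plus ambiguous UMIs, and from L to CS at 0.84 with the block and 1.11 with unspliced UMIs. Of the 8 members with unspliced UMIs, 5 were called for a lower hepatocyte over background ratio from CS to PH in unspliced UMIs alone, with p adjusted over the members and not over all genes, so this count does not compare with the 8 called of 10. For zonation, the exact sign-flip test first planned, adjusted over the members, gave 2 calls in CS with the nuclei cut in 2 parts, against 4 with 3. Adjusted over all genes it called 0 of the 6015 genes tested in L and 0 in CS, so its lack of member calls cannot decide. The edgeR fits gave 4 calls in CS with either cut. The cause was not tested.

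With each mouse left out in turn, members called ran from 1 to 2 between L and CS (1 without mouse 4), and in background nuclei from 1 to 2 between CS and PH (2 without mouse 4, 5 or 8, from Serpina3m) and from 0 to 1 between L and CS (1 without mouse 7, Serpina3n). The Serpina3 sum ran from 0.76 to 0.97 from L to CS (called without mouse 5), and Serpina3n from CS to PH passed at 0.66 without mouse 3. In the edgeR fits the mouse block changed no other call than those given here, Serpina3k from L to CS (0.78) and Serpina3m in background nuclei from CS to PH (0.76, adjusted p = 0.049). Pairing the exact tests of share and ratio by mouse, an alternative chosen after the data were seen, changed the calls given beside them. Depth limits Serpina6 in PH, with 20 to 64 UMIs a sample, and background nuclei, with as few as 29 a sample.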
